A study of Arabidopsis thaliana with 6 samples.

Results

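CP29 is a chlorophyll-binding antenna protein of photosystem II, and Arabidopsis thaliana carries 3 genes for it, LHCB4.1 (AT5G01530), LHCB4.2 (AT3G08940) and LHCB4.3 (AT2G40100). These loci were followed on all 6 arrays of a comparison of sdg2 mutant with wild type seedlings. Each is read by 1 probe set that names no other gene, 251082_at for LHCB4.1, 258993_at for LHCB4.2 and 265722_at for LHCB4.3, so the 3 members stand beside 13355 genes represented by 1 probe set each. They were picked as a group because their differences between the genotypes were already known from these arrays to diverge. Their values are therefore given as a description and without a test.

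Both groups are of the Columbia accession (Col-0), 3 arrays of wild type and 3 of plants described by the labels as carrying an sdg2 mutation. SDG2 (SET DOMAIN GROUP 2) trimethylates lysine 4 of histone H3, a mark of active genes. The allele is not given in the sources used here, and SDG2 itself has no probe set named in the annotation, so the genotype labels were not checked against the mutated gene. All plants were grown for 10 days on plates under 24 h of light per day at 22 °C, and RNA came from whole seedlings. The titles number the samples of a genotype as biological replicates, but nothing says which plates or cultures they came from, so errors and p-values cover only the spread among the samples given, part of which may be technical.

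CP29 is a monomeric antenna protein that sits between the core of photosystem II and the outer light-harvesting trimers. It passes excitation energy inwards and takes part in the dissipation of excess light. In Arabidopsis, LHCB4.1 and LHCB4.2 encode the common forms, while the LHCB4.3 protein lacks part of the C-terminal end and its transcript is known to accumulate under strong light.

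The 3 genes differed from one another in how they stood between the genotypes. LHCB4.3 signal was 9.53-fold higher in sdg2, LHCB4.2 signal was 1.70-fold lower, and LHCB4.1 signal was within 1.06-fold of wild type. Values are on the log2 scale after the authors' GCRMA processing, where an increase of 1 is a doubling. Values of unexpressed probe sets pile up around a peak, which lay between 2.15 and 2.21 on the separate arrays. The highest value of any array was 15.03.

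LHCB4.3 gave 6.49, 5.90 and 6.06 on wild type arrays 1, 2 and 3, and 9.25, 9.71 and 9.25 on the sdg2 arrays in the same order. Every sdg2 array was above every wild type array, and the wild type values were well clear of the level of unexpressed probe sets. The wild type mean was 6.15 ± 0.31 (SD, n = 3) and the sdg2 mean 9.40 ± 0.26, a change of 3.25 ± 0.21 (moderated SE of the limma fit). Over the 9 pairs of 1 wild type and 1 sdg2 array the ratio ran from 6.77-fold to 14.0-fold. Only 33 of the 13355 genes had a larger increase, and 61 (0.457%) a larger change in either direction.

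LHCB4.2 gave 14.30, 14.27 and 14.22 in wild type and 13.49, 13.61 and 13.39 in sdg2. Here the order was turned, with every sdg2 array below every wild type array and a gap of 0.61 between the groups. The means of 14.26 ± 0.04 (SD, n = 3) and 13.50 ± 0.11 differed by -0.77 ± 0.06 (SE), so that the sdg2 signal was 58.7% of that in wild type. Pairs of arrays ranged from -0.91 to -0.61. A change of this size or more was commoner than that of LHCB4.3, since 1856 genes (13.9%) had a larger one in either direction.

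LHCB4.1 gave 14.07, 14.08 and 13.96 in wild type and 14.09, 14.17 and 14.08 in sdg2. The lowest sdg2 array (14.081) lay only just above the highest wild type array (14.077), and the groups overlapped once the arrays were quantile normalized or centred on their medians. The means of 14.03 ± 0.07 (SD, n = 3) and 14.11 ± 0.05 differed by 0.08 ± 0.05 (SE). A larger change was found for 60.7% of the genes.

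**Figure D1:**
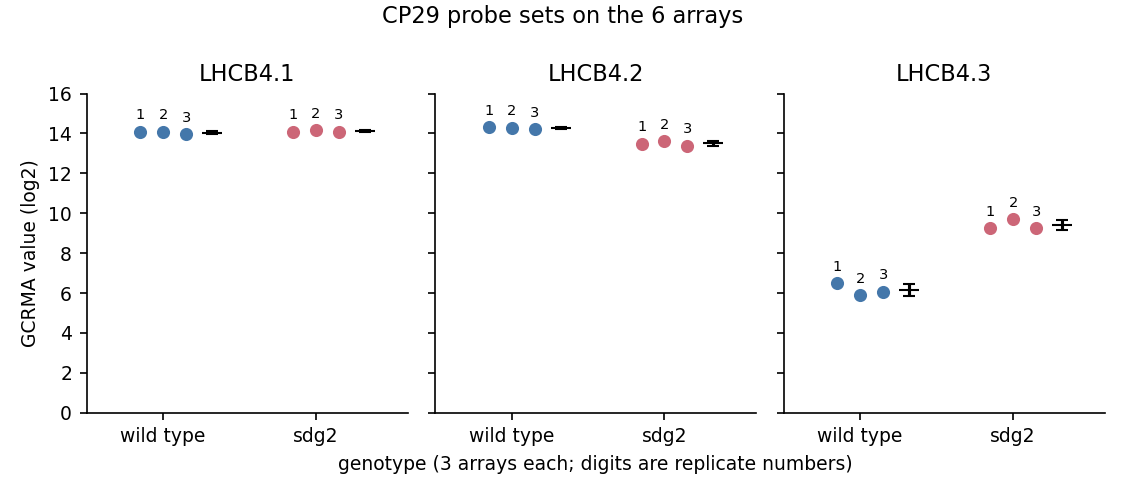
GCRMA values (log2) of the 3 CP29 probe sets on each array, wild type in blue and sdg2 in red, with digits giving the replicate number and black bars the mean ± SD of 3 arrays. LHCB4.3 moves from between 5.90 and 6.49 to between 9.25 and 9.71, every sdg2 value of LHCB4.2 lies at least 0.61 below its wild type values, and LHCB4.1 stays near 14.

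As deposited, the genotype groups did not overlap in any of the 3 members, against 43.5% of all genes (20.0% with sdg2 higher and 23.5% with sdg2 lower). Because the members were chosen on this contrast, nothing is read from that count. Their median change was 0.08, beside -0.01 over all genes. In such bulk samples, fewer cells of a type and less RNA per cell cannot be told apart.

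LHCB4.1 and LHCB4.2 lie near the top of the scale, where bright probe sets can be compressed. Only 0.114% and 0.158% of the 22746 probe sets were brighter over the 6 arrays, and the LHCB4.2 values were between 0.70 and 1.54 below the highest value of their array. Of the 917 probe sets with a mean of at least 11, 21.4% had a larger change than LHCB4.2, and the median absolute change was 0.40. Most of these are dimmer than LHCB4.1 and LHCB4.2, so they do not show how far changes near the top are compressed. Whether the probe sets of these similar genes also read one another's transcripts was not tested.

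**Figure D2:**
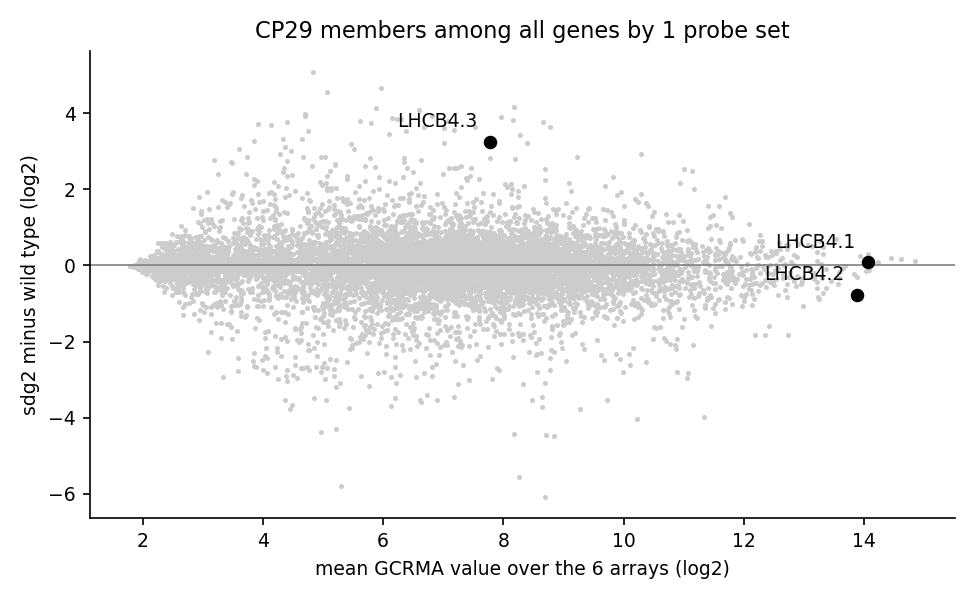
Change between sdg2 and wild type (log2) against mean GCRMA value over the 6 arrays (log2) for 13355 genes in grey, with the CP29 members in black. LHCB4.3 is at the upper edge of the cloud with 3.25, while LHCB4.1 (0.08) and LHCB4.2 (-0.77) sit at its bright end.

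Setting the members against each other on the same array removes whatever shifts all probe sets of that array. These are differences of changes, since the levels of separate probe sets cannot be compared. Relative to LHCB4.1, LHCB4.3 shifted by 3.17 ± 0.21 (SE, n = 3 per group), a 9.02-fold change of their ratio, and the 2 genotypes were 2.74 apart at their nearest arrays. Relative to LHCB4.2, it shifted by 4.02 ± 0.19, or 16.2-fold. LHCB4.2 shifted by -0.85 ± 0.04 relative to LHCB4.1, or 1.80-fold. The SD of this last difference was 0.03 in wild type and 0.07 in sdg2.

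**Figure D3:**
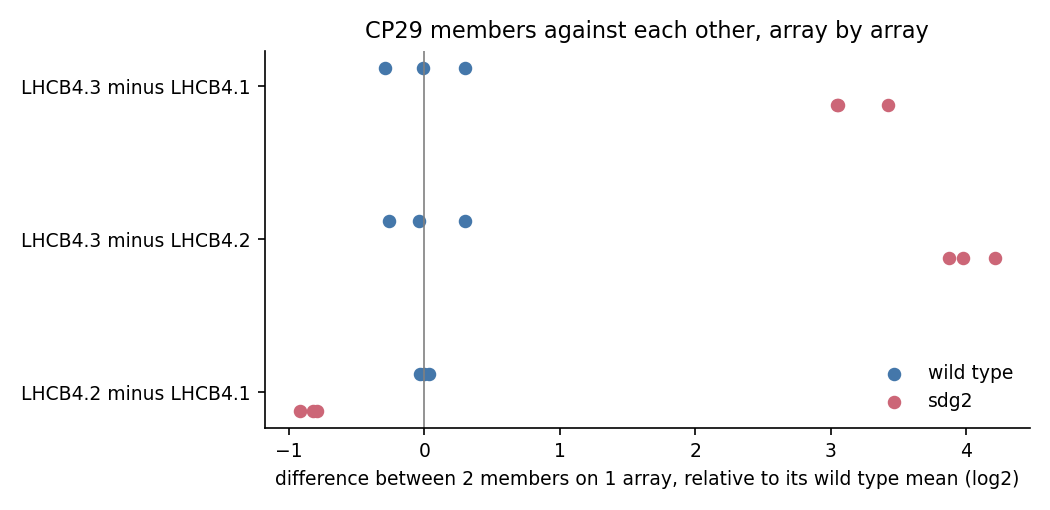
Difference between pairs of CP29 members on each array, in log2 and relative to the wild type mean of that pair (0), with 3 wild type arrays in blue and 3 sdg2 arrays in red. No pair overlaps between genotypes, and the mean shifts are 3.17, 4.02 and -0.85 from top to bottom.

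Array sdg2 replicate 2 was the highest of its group for all 3 members. It was also the highest sdg2 array for 47.4% of all probe sets, so this was shared with much of the array. In wild type, replicate 1 was highest for LHCB4.2 and LHCB4.3, as for 49.7% of all probe sets. Leaving out any 1 array kept the change of LHCB4.3 between 3.10 and 3.42, that of LHCB4.2 between -0.82 and -0.71 and that of LHCB4.1 between 0.04 and 0.10. Over all probe sets, correlations ran from 0.997 to 0.998 within a genotype and from 0.970 to 0.971 between genotypes.

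The surroundings of the 3 genes were looked at in the photosynthetic apparatus. Of 177 genes on 15 lists of antenna, photosystem, pigment and light-regulation genes, 26 have a probe set naming 1 gene here, and 13 of them rose, 5 fell and 8 did not pass (limma, adjusted p below 0.05 over all 22746 probe sets). Over all genes the same test called 31.8%, 15.2% higher and 16.6% lower. These shares, used again below, include genes at the level of unexpressed probe sets, where a call is less likely. All 26 listed genes lay well above that level, so the shares are not matched to them in signal. The median change of the 26 was 0.17, beside -0.01 over all genes. All 26 had smaller changes than LHCB4.3, and 2 of them passed at 2-fold or more, against 8.91% of all genes. The other members of the photosystem II antenna, the photosystem I antenna, the factors that insert antenna proteins, the kinases and phosphatases that act on them and the photosystem II repair proteases were not analysed here.

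The closest relatives measured were LIL3:1 and LIL3:2, light-harvesting-like proteins that anchor enzymes of chlorophyll synthesis. LIL3:1 gave 10.69, 10.89 and 10.72 in wild type and 11.48, 11.38 and 11.40 in sdg2, a rise of 0.66 ± 0.06 (SE; adjusted p = 0.0011 in limma). LIL3:2 did not pass, with a change of -0.07 ± 0.07 (adjusted p = 0.463).

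Of the 5 measured photosystem subunits encoded in the nucleus, 3 fell and 2 did not pass, against 16.6% of all genes called lower. PSAN, a lumenal subunit of photosystem I, fell by 0.59 ± 0.07 (adjusted p = 0.00184 in limma). Of the photosystem II subunits, PSBW fell by 0.31 ± 0.05 and PSBY by 0.20 ± 0.05, both small membrane proteins, and the assembly protein gene PSB27 had a change of 0.01. PSAE-1, which helps dock ferredoxin, did not pass at -0.14. PSBY lost its call under 7 of 12 alternatives, with adjusted p between 0.0503 and 0.318. LHCB4.2, with -0.77, was lower in sdg2 by more than any of these 5 genes.

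Many photosystem II core subunits are encoded in the plastid, and 14 of these plastid genes were added after the lists above had been seen. Of these, 3 fell and none rose, with 11 not passing and a median of -0.04, and the share that fell is near the 16.6% called lower over all genes. psbI fell by 1.95 ± 0.12 and psbK by 1.33 ± 0.07, small subunits of the core. Their locus numbers are consecutive, so these falls may not be separate events. Whether the arrays read plastid transcripts as they read nuclear ones was not tested. The third, psbE, of cytochrome b559, fell by 0.17, a call lost under 10 of 12 alternatives (adjusted p of 0.0533 to 0.139). The core antenna genes psbB (CP47) and psbC (CP43) had changes of 0.27 and 0.23, and the reaction centre genes psbA and psbD of -0.23 and 0.45, none of which passed.

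Chlorophyll synthesis was the best covered list, with 9 of 26 genes measured, of which 6 rose, 1 fell and 2 did not pass (median 0.24). Of all genes, 15.2% were called higher and 16.6% lower. PORB, the light-dependent protochlorophyllide reductase, gave 10.95, 11.10 and 11.20 in wild type and 12.46, 12.45 and 12.47 in sdg2. It rose 2.59-fold (1.38 ± 0.07; adjusted p = 0.000124 in limma). GSA1, which makes the first dedicated precursor 5-aminolevulinate, rose by 0.85 ± 0.06. CHLM, the methyltransferase that follows magnesium insertion, fell by 0.51 ± 0.07. HEMB1, CHLI2, HEME2 and HEME1, of steps before PORB, rose by 0.54, 0.59, 0.24 and 0.20. For HEME1 the call was lost under 7 of 12 alternatives (adjusted p of 0.0544 to 0.105). NOL, a chlorophyll b reductase and the measured gene of chlorophyll breakdown, rose by 0.35 ± 0.06.

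The carotenoid and quenching list had CHL, the plastid lipocalin of slow antenna quenching, and LYC, lycopene beta-cyclase. CHL rose 1.91-fold (0.93 ± 0.06; adjusted p = 0.00028 in limma), and LYC did not pass at -0.22. STZ, a zinc finger gene of strong light and oxidative stress, rose by 0.43 ± 0.04 and was the 1 measured gene of that list.

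HYH, a bZIP transcription factor of light signalling and a relative of HY5, was the 1 measured regulator of 16. It gave 8.07, 7.95 and 8.20 in wild type and 6.39, 6.09 and 6.53 in sdg2, the groups being well apart. It fell 3.34-fold (-1.74 ± 0.13; adjusted p = 0.000459 in limma). This was the largest change of the 26 listed genes, and the only fall larger than the difference in LHCB4.2.

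Electron transport and carbon fixation genes moved upwards where they passed. ATPC1, a subunit of the plastid ATP synthase, rose by 0.52 ± 0.08, and PGRL1B, of cyclic electron flow, did not pass at 0.14. SBPASE and PRK, Calvin cycle enzymes, rose by 0.65 ± 0.05 and 0.32 ± 0.07, and RCA, which activates Rubisco, did not pass at 0.09. PRK lost its call when wild type replicate 1, wild type replicate 3, sdg2 replicate 1 or sdg2 replicate 2 was left out (adjusted p between 0.0579 and 0.0719).

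Further lists were drawn up after these values had been seen. Among 5 nuclear photosystem assembly factors 3 rose and 2 did not pass (median 0.23), against 15.2% of all genes called higher. HCF101, of iron-sulphur cluster assembly for photosystem I, rose by 0.70 ± 0.11 and LPA1, of photosystem II assembly, by 0.48 ± 0.10. Without sdg2 replicate 1 the call for LPA1 was lost (adjusted p = 0.051). LPA2, the other gene that rose, did so by 0.23, a call lost under 5 of 12 alternatives. Of 4 nuclear genes of the plastid NDH complex 2 rose and 2 did not pass (median 0.38), beside the same 15.2% of all genes called higher. PIFI rose by 1.27 ± 0.10 and NdhN by 0.94 ± 0.04.

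**Figure D4:**
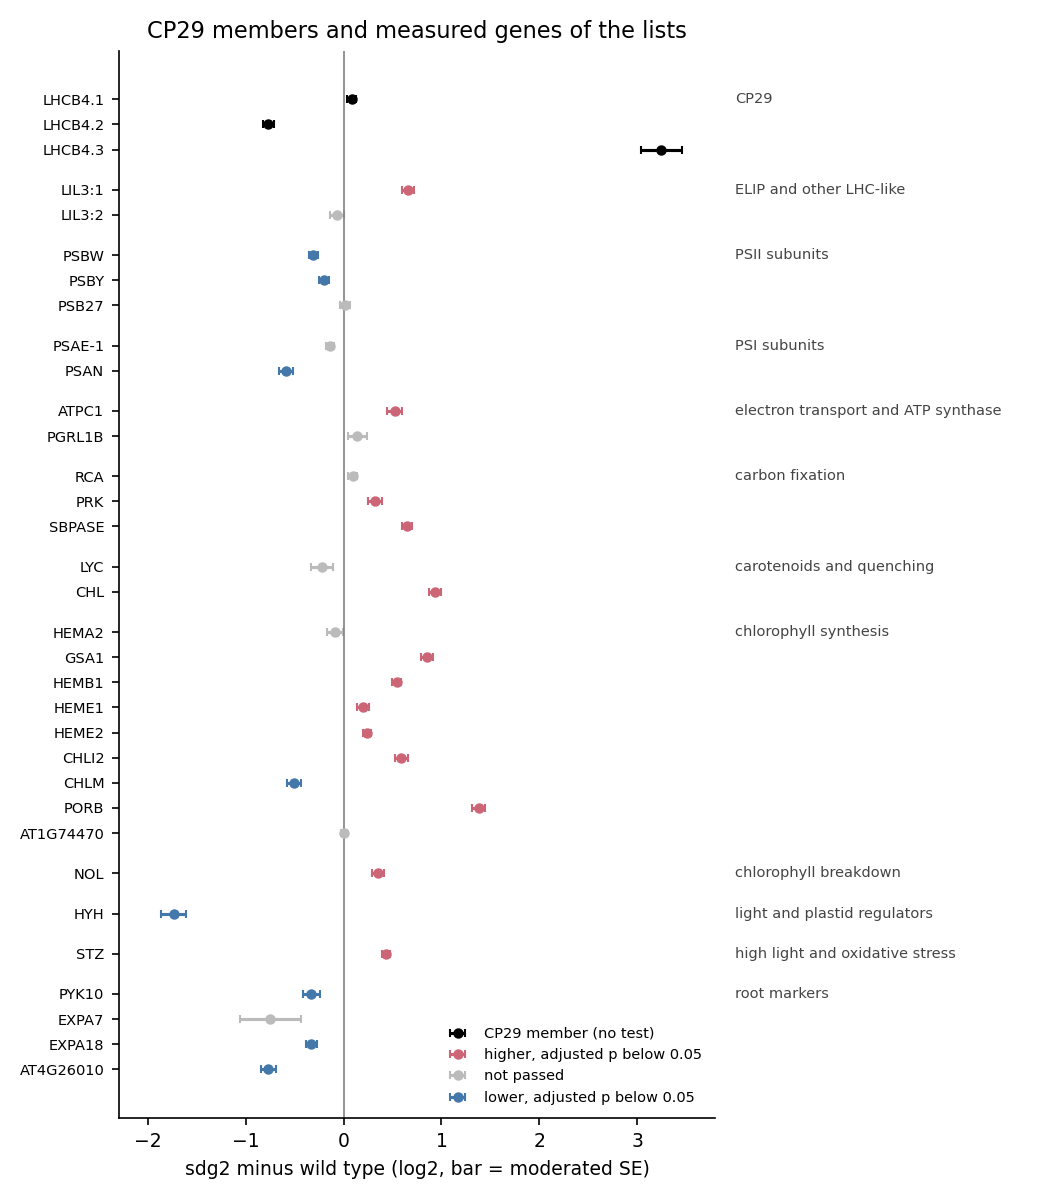
Change between sdg2 and wild type (log2) with its moderated SE for the CP29 members (black, not tested) and for the measured genes of the lists, red for higher, blue for lower and grey for not passed. LHCB4.3 with 3.25 lies far to the right of all listed genes, the highest of which is PORB with 1.38, and HYH with -1.74 is farthest to the left.

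The make-up of the seedlings was gauged by marker genes. Root markers fell in 3 of 4 measured genes of 13, against 16.6% of all genes called lower. EXPA7 did not pass, and the median of the 4 was -0.54. AT4G26010, listed as a root peroxidase gene, fell by 0.77, and PYK10, of root endoplasmic reticulum bodies, by 0.33, a call lost under 6 of 12 alternatives (adjusted p of 0.0504 to 0.126). The summed root marker signal was 13.43 to 13.64 in wild type and 13.09 to 13.34 in sdg2 (log2). PYK10 made up 92.3% to 94.7% of that sum on each array, and without it the sum was 9.67 to 9.78 in wild type and 8.92 to 9.09 in sdg2. The summed signal of 8 genes of green tissue, from the photosystem and carbon fixation lists, was 16.31 to 16.38 in wild type and 16.22 to 16.28 in sdg2. These sums were lower in sdg2 without overlap, and no measured marker was at the level of unexpressed probe sets. The 8 green tissue genes went both ways, however. PSAN, PSBW and PSBY fell, SBPASE and PRK rose, and PSB27, PSAE-1 and RCA did not pass. Their sum weighs bright genes more. The brightest, RCA, was at 14.19 in wild type and 14.28 in sdg2. PSAN, with the largest fall of the 8, was at 13.67 and 13.07. The part of tissue make-up in the differences of the CP29 genes was not tested.

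Genes with the most similar values were sought among 7156 genes with a mean of at least 5 in the brighter group. Likeness was the Euclidean distance over the 6 arrays between log2 values, each gene centred on its own mean. The 5 genes nearest to LHCB4.3 were AT2G23910, AT1G07050, AT5G62360, AT1G47400 and AT3G58200, at distances of 0.44 to 0.59 and with changes of 3.05 to 3.31. AT1G47400 was the one of these with a wild type mean above 4, at 6.78 against 10.01 in sdg2. For AT2G23910, AT1G07050 and AT3G58200 the wild type means were below 3, so their folds are not measured ratios. Nearest to LHCB4.2 were AT5G63620, AT5G19875, AT5G55790, AT2G44300 and AT5G27700, at distances of 0.08 to 0.11 and with changes of -0.84 to -0.71. Fewer genes have changes as large as that of LHCB4.3, and its values spread more within a genotype. The distances for LHCB4.3 and LHCB4.2 are therefore not compared. With 3 arrays against 3, this likeness is mostly the size of the difference between the genotypes.

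The genes beside the 3 loci in the order of assembly TAIR10.1 were examined as well, up to 4 on each side, a choice made after the members' values were known. Of 7 with a probe set, 2 rose and 5 did not pass, a share near the 31.8% called over all genes. AT2G40110, the next gene after LHCB4.3, did not pass, with a change of -0.32 ± 0.16 (adjusted p = 0.197 in limma), and passed at -0.49 without wild type replicate 2 (adjusted p = 0.00977). AT2G40120, also after it, did not pass at -0.15. AT3G08930 and AT3G08920, the genes before LHCB4.2, did not pass at -0.06 and -0.07, and AT3G08960 after it was at 2.01 and 2.03, the level of unexpressed probe sets. AT3G08910, which lies 3 genes before LHCB4.2, rose by 0.67 ± 0.18, a call lost under 6 of 12 alternatives (adjusted p of 0.0539 to 0.111). TAAC, a thylakoid ATP/ADP carrier gene 3 places before LHCB4.1, rose by 0.44 ± 0.04 (adjusted p = 0.000842 in limma). AT2G40110 and AT2G40120 were the only measured neighbours of LHCB4.3, on the same side of it, and neither passed as higher. Since only 33 of the 13355 genes had a larger increase than LHCB4.3, this says little about the region.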

How the data were processed

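The values are the authors' deposited table of log2 signals, 1 column for each of 6 1-colour Affymetrix arrays. Per the submitters' processing notes they come from GCRMA, which adjusts background, quantile normalizes and summarizes probes (version not given in the sources used here). The method gives no presence calls, and its normalization hides global shifts. The number of arrays limits the precision.

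Of 22810 probe sets, 64 Affymetrix controls were left out. Of the remaining 22746, 13513 name 1 gene in the platform annotation, 503 name several and 8730 are not listed there. Symbols were updated through the NCBI table of TAIR10.1 for 13436. A gene was represented by its brightest probe set.

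The fit used lmFit and eBayes of limma 3.58.1 (R 4.3.3) with genotype alone, signed as sdg2 minus wild type. P-values were adjusted by Benjamini-Hochberg over 22746 probe sets and called at 0.05. The fit was tested on simulated data. Members and lists were chosen with earlier results of these data known, and the lists of plastid core, assembly and NDH genes after the other lists' values. Genes named were the members, all measured light-harvesting-like genes, up to 2 rises and 2 falls past the threshold in each other list or its largest change, and the 5 nearest genes of LHCB4.3 and LHCB4.2. Others were named after their values were seen. Root marker values gauge tissue make-up. Alternatives were leaving out each array, a block for the replicate number, median centring, quantile normalization, trended robust eBayes, a filter (5 or more on at least 3 arrays), only probe sets naming 1 gene and averaging the probe sets of a gene. Figures were drawn with matplotlib 3.10.9.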

Additional observations from a re-analysis of the deposited data

How the results depend on the processing

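The changes of LHCB4.3 (3.10 to 3.42), LHCB4.2 (-0.82 to -0.70) and LHCB4.1 (0.04 to 0.10) kept their direction under all 12 alternatives run. The shift of LHCB4.2 relative to LHCB4.1 was -0.78 after quantile normalization against -0.85 as deposited. The shift of LHCB4.3 was 3.03 to 3.33 relative to LHCB4.1 and 3.89 to 4.17 relative to LHCB4.2. Replicate numbers are shared by the genotypes, and deviations of same-numbered arrays correlated at -0.01, 0.07 and 0.06. Those of differently numbered arrays ran from -0.08 to 0.01. With so few arrays, these weak correlations do not settle whether the numbers pair the samples. With the replicate block, LHCB4.3 changed by 3.25 with an SE of 0.24, and 4087 probe sets were higher and 3778 lower, against 4327 and 4000 without it. With only probe sets naming 1 gene, 1959 were higher and 2155 lower, since fewer were tested. Genes of the 15 lists numbered 11 to 13 higher and 4 to 6 lower in all alternatives. Averaging the probe sets of a gene left these counts as they were, since each measured gene of the lists has 1. Of 41 genes with a call, 33 kept it under each alternative that tested them, and PSBY, PRK, HEME1, LPA1, LPA2, psbE, PYK10 and AT3G08910 lost it under at least 1. Genes beside the loci that never passed changed sign, AT3G08960 to -0.03 with median centring, and with 1 array left out AT3G08920 ranged from -0.14 to 0.03, AT3G08930 from -0.18 to 0.03 and AT2G40120 from -0.39 to 0.11. The nearness of LHCB4.1 and LHCB4.2 to the top of the signal scale limits how exactly their changes can be measured.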
